A study of Homo sapiens with 8 samples.

Results

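The 3 CYP26 genes, CYP26A1, CYP26B1 and CYP26C1, were examined for open chromatin in U-937 cells, a human myeloid leukaemia line. Members were the regions that overlapped a gene body or the 250 kb on either side of it (GENCODE, hg38) in 4 deposited ATAC-seq peak lists. They numbered 69 of the 161291 regions in the union of the lists. ATAC-seq uses a transposase that inserts adapters into accessible DNA, so that a peak marks an open stretch.

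The 4 groups, each collected after 24 h, received the vehicle DMSO, all-trans retinoic acid (ATRA, 0.1 µM), Corin (0.1 µM) or the pair of compounds (0.1 µM each), which is called the combination here. Corin is a dual inhibitor of the histone demethylase and histone deacetylase of the CoREST corepressor complex. Each group had 2 samples, which the authors pooled into 1 list, so there is no replicate spread and no test of any difference below. All groups are the same line, and separate cultures are not stated. The 3 treatments were compared with the same DMSO list, so their values are not independent of one another.

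CYP26 enzymes are cytochromes P450 that oxidise retinoic acid and so clear it from the cell. Retinoic acid binds the retinoic acid receptors (RAR), which sit with retinoid X receptors (RXR) on direct repeats of a 6-base core, often with a spacer of 5 bases. CYP26A1 is a classic target of this pair, and its product removes the hormone that induced it. CYP26B1 is known for shielding germ cells and the developing limb and skeleton from retinoic acid, and CYP26C1 acts in the embryonic hindbrain.

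A spacer-5 repeat was taken as 2 cores in the same orientation with 5 bases between, on either strand. A core was AGGTCA in its consensus form, with AGTTCA as a variant at the third base, GGGTCA as a variant at the first base, and GGTTCA as a variant at both of these positions. Such a repeat lies near the second annotated start of CYP26A1, and is shown because no list had a region over it. It ends 74 bases before the start at base 93073893 of chromosome 10. Its middle lies 336 bases past the first annotated start, at 93073475. Capitals mark the cores.

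CYP26A1 start, chr10:93073803-93073819, minus strand: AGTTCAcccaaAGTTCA

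3 regions of the windows held an exact repeat in the 200 bp centred on their summit. They are shown because they hold the repeat, and again capitals mark the cores. Each was absent from the DMSO list and present in the ATRA list. Regions are called by the distance of their summit from the start of the gene, positive in the direction of transcription.

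CYP26A1 +77.0 kb, chr10:93150402-93150601, minus strand: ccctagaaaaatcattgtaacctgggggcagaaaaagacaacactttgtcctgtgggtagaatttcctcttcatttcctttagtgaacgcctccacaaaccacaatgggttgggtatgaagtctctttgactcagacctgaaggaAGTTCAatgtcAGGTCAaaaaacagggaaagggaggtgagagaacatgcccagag

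CYP26A1 +172.4 kb, chr10:93245797-93245996, minus strand: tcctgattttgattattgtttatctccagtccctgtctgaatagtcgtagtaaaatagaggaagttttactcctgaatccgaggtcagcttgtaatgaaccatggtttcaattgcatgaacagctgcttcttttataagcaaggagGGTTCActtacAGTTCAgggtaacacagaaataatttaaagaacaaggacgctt

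CYP26B1 +199.0 kb, chr2:71948772-71948971, plus strand: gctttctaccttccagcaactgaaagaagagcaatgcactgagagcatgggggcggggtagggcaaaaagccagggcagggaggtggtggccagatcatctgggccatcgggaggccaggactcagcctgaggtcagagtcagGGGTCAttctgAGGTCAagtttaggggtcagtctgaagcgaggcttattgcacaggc

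In each window the region of all 4 lists with the largest ATRA to DMSO ratio of pileups is shown too. The first has a spacer-5 repeat with 1 mismatch, in capitals, and the second an AP-1 site (TGACTCA), also in capitals.

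CYP26A1 +125.9 kb, chr10:93199266-93199465, plus strand: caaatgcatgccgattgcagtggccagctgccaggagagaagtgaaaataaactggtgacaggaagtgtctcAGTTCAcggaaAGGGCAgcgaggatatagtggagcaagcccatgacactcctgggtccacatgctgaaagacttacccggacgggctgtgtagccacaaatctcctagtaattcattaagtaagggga

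CYP26B1 +196.9 kb, chr2:71950861-71951060, plus strand: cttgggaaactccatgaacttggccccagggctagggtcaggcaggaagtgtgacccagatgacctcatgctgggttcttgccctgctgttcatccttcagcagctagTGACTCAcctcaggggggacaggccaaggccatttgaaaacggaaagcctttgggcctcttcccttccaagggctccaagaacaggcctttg

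The lists held 113914 to 116563 regions with DMSO and ATRA, and 101851 with Corin and 94917 with the combination. The most frequent local background was a pileup of 12.8 reads with DMSO, 9.12 with ATRA, 13.1 with Corin and 13.9 with the combination, and the 1st percentile of pileups on that background was 25, 18, 22 and 23 reads. A pileup too low for the DMSO list can thus be in the ATRA list, and the part of this in the counts was not tested. Promoters of 10 myeloid markers were called in 7, 7, 8 and 7 cases in the DMSO, ATRA, Corin and combination lists, and those of CD14 and MPO in none. Of 4 T cell markers 2 had a called promoter in every list, and of 4 B cell markers 3, so an open promoter did not separate these cell types.

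CYP26A1 (chr10:93073475-93077885, plus strand) and CYP26C1 (chr10:93060798-93069540, plus strand) lie 3934 bp apart, and their windows share 496.1 kb. They were therefore joined into 1 window of 517.1 kb with 39 union regions. CYP26B1 (chr2:72129238-72147862, minus strand) had a window of 518.6 kb with 30 union regions.

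The joined CYP26A1 and CYP26C1 window held 18 regions with DMSO, 34 with ATRA, 20 with Corin and 24 with the combination. Per Mb that was 34.8, 65.8, 38.7 and 46.4, against 37.7, 36.9, 33.0 and 30.7 over the genome. Among the 4 lists here the ATRA list was the densest. Set against 250 kb windows of 20007 coding genes, though, the 33 ATRA regions of CYP26A1 lay below the median of 37.0 and 57.06% of genes had more. Its 17 DMSO regions lay below a median of 38.0, and 80.75% of genes had more. The CYP26B1 window held 18, 17, 17 and 21 regions, with no more in the ATRA list than in the DMSO list.

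Of the 34 ATRA regions in the CYP26A1 and CYP26C1 window, 17 (50%) had no counterpart with DMSO, where 23.1% of all ATRA regions had none. In the other direction 1 of 18 DMSO regions (5.56%) had no counterpart with ATRA, against 25.3% of all. Corin gained 6 of 20 (30%), where 17.7% of all Corin regions were gained, and lost 4 of 18 (22.2%), against 28.5%. The combination gained 10 of 24 (41.7%), against 16.7%, and lost 4 of 18 (22.2%), against 31.5%. Pileups of the 17 regions gained with ATRA ran from 30 to 343 reads with a median of 46.0, and 5 of them stood above the middle of the ATRA list by strength.

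**Figure D1:**
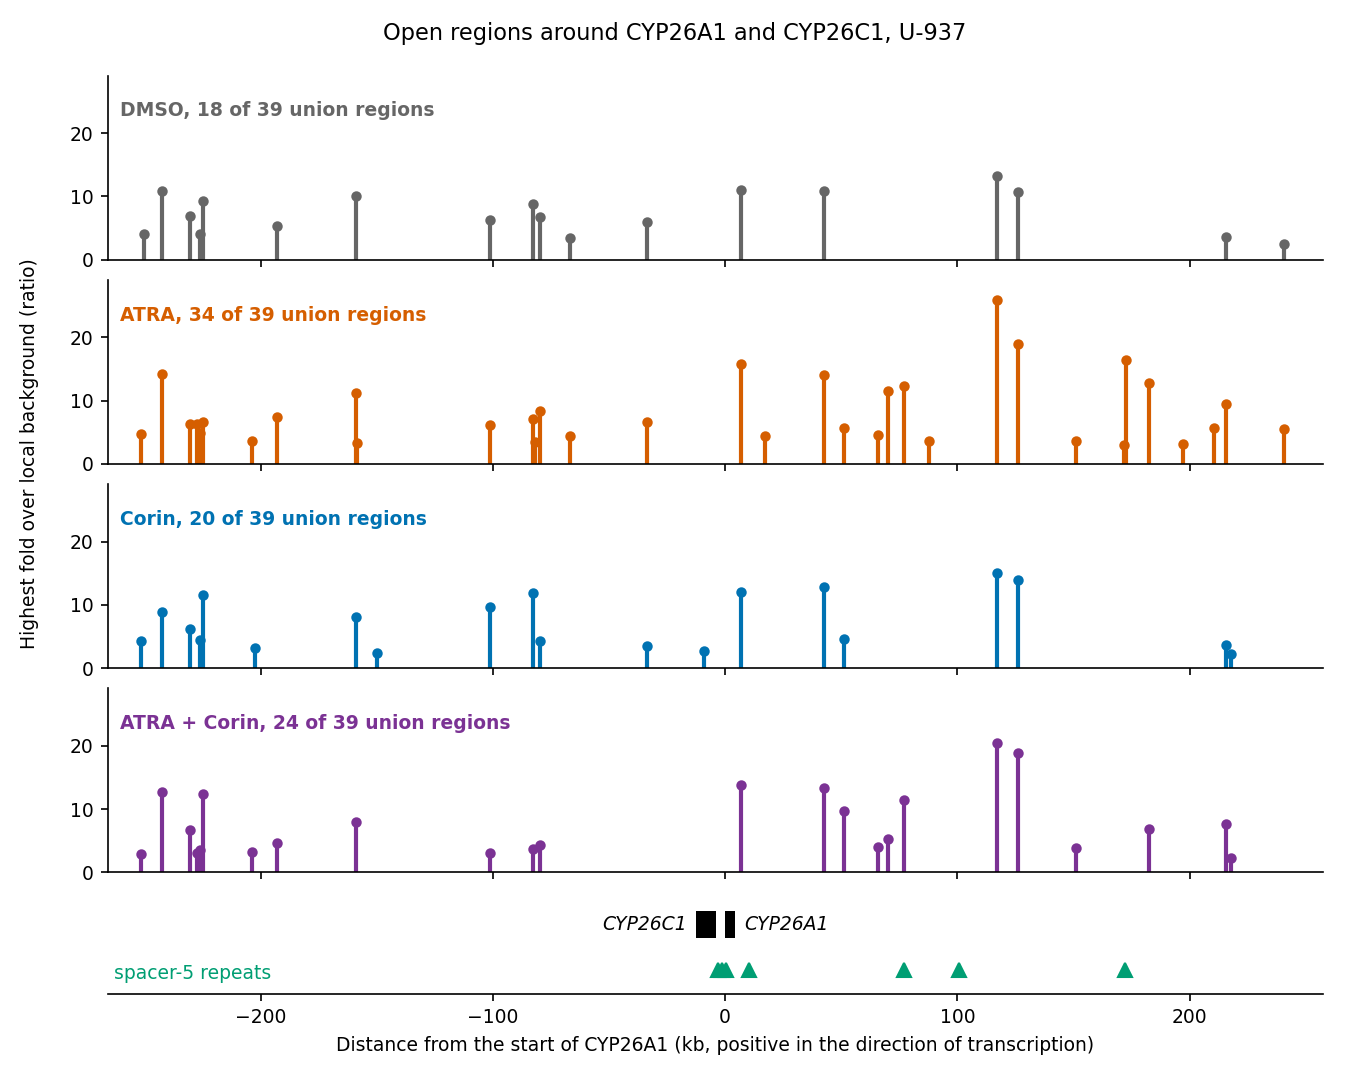
Highest fold over local background (vertical axis, ratio) of each region against the distance of its summit from the start of CYP26A1 (horizontal axis, kb), with 1 panel per list. Black boxes are the genes and green triangles the spacer-5 repeats. ATRA added regions mostly on the right, where 18 regions were called with ATRA and 6 with DMSO.

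None of the 4 lists had a region within 1 kb of any annotated start of the 3 genes. The nearest region to CYP26A1 lay at +7.0 kb, past its 3′ end, with a fold over local background of 11.1 with DMSO, 15.8 with ATRA, 12.0 with Corin and 13.8 with the combination. Its centred log2 ratio of pileups with ATRA was -0.15 (95% counting interval -0.46 to 0.16), so at this depth it did not differ from DMSO beyond counting error. A region with its summit in an exon of CYP26C1 (chr10:93064209-93064791) was called with Corin at a fold of 2.64 and in no other list. It lies within 1 kb of the start of an overlapping long non-coding RNA.

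The 3′ side of CYP26A1 had 19 union regions, called 6 times with DMSO, 18 with ATRA, 7 with Corin and 12 with the combination. ATRA gained 12 of 18 there, where 23.1% of all were gained, and lost 0 of 6, where 25.3% were lost. On the 5′ side, which is mostly the body of EXOC6, a gene of the exocyst complex, 19 union regions were called 12, 16, 12 and 12 times. ATRA gained 5 of 16 there and lost 1 of 12, against the same 23.1% and 25.3%. From +151.1 kb on, 9 of the 3′ regions lie nearest to the start of another coding gene, MYOF, which encodes a ferlin of the plasma membrane, and 6 of the 12 gained with ATRA are among them. The last, at +240.6 kb, is in a MYOF intron. Within 50 kb of the CYP26 genes, over both windows, ATRA gained 2 of 7 regions, against 23.1% of all. It lost 4 of 9 there, against 25.3%. Only 7 of the 51 ATRA regions were this close, so most lay further out, gained or not.

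The +77.0 kb region, which holds a repeat 54 bp from its summit, was absent with DMSO and Corin and had a fold of 12.3 with ATRA and 11.4 with the combination. Its pileup was 177 and 229 reads. The centred log2 pileup ratio of the combination to ATRA was 0.38 (95% counting interval 0.09 to 0.67), and 0.23 by fold. It was thus higher with the combination beyond counting error, by less than 1.5 times.

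The +172.4 kb region, with a repeat 55 bp from its summit, was called with ATRA alone, at a fold of 16.5 and a pileup of 166. This was the highest fold of any region found in the ATRA list and in no other in either window. The combination list had no region at that place.

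The region at +70.0 kb had a fold of 11.6 with ATRA and 5.29 with the combination, and none with DMSO or Corin. Its centred log2 pileup ratio of the combination to ATRA was -1.02 (95% counting interval -1.43 to -0.62). At +182.3 kb the folds were 12.8 with ATRA and 6.90 with the combination, and the same ratio was -0.32 (-0.71 to 0.07). The first was weaker in the combination beyond counting error and the second was not.

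At +51.2 kb the order was different. That region had no DMSO call, a fold of 5.63 with ATRA, 4.67 with Corin and 9.64 with the combination, and a combination to ATRA log2 pileup ratio of 1.36 (95% counting interval 0.91 to 1.83). At +42.5 kb all lists had a region, with pileups of 149 (DMSO), 197 (ATRA), 212 (Corin) and 370 (combination). Both places had their highest pileup in the combination list. By fold the +42.5 kb region was highest with ATRA, at 10.9 (DMSO), 14.0 (ATRA), 12.9 (Corin) and 13.4 (combination). Its local background was 12.8, 13.1, 15.5 and 26.7 reads in the same order.

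The strongest ATRA region of the window by fold lay at +117.1 kb, with folds of 13.3 with DMSO, 26.0 with ATRA, 15.1 with Corin and 20.4 with the combination. Its pileups were 182, 438, 213 and 453 reads. The +125.9 kb region had folds of 10.7, 18.9, 13.9 and 18.9 in the same order, and pileups of 147, 583, 196 and 593. In both, the pair of lists with ATRA stood above the pair without it.

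For +125.9 kb the centred log2 ratio with ATRA was 0.49 by fold, under the limit of 1.5 times, and 1.89 (95% counting interval 1.62 to 2.16) by pileup. For +117.1 kb it was 0.64 by fold and 1.17 (0.91 to 1.42) by pileup. A region further out, at +215.7 kb, had folds of 3.55, 9.49, 3.68 and 7.57 and a ratio of 1.08 by fold with ATRA. Fold and pileup thus gave different sizes, and where they part the local background differed between lists.

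On the EXOC6 side the promoter region at -224.7 kb had pileups of 479 with DMSO, 331 with ATRA, 774 with Corin and 803 with the combination. Its centred log2 pileup ratio was -0.63 (95% counting interval -0.84 to -0.43) with ATRA, 0.82 (0.66 to 0.99) with Corin and 0.59 (0.42 to 0.75) with the combination. By fold the ratios were -0.82, 0.41 and 0.39, and only that with ATRA passed 1.5 times. By pileup both lists with Corin were high here and the ATRA list was low. A pair of EXOC6 introns, at -101.1 and -82.7 kb, behaved in another way: their pileups were 86 and 121 with DMSO, 135 and 170 with Corin, 61 and 70 with ATRA, and 45 and 55 with the combination. Both were highest with Corin alone and lowest with the combination, and both hold an AP-1 site.

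The region of the EXOC6 side with the most reads among those gained with ATRA was intronic, at -227.3 kb. It had folds of 6.23 with ATRA and 3.04 with the combination, pileups of 343 and 212, and no call with DMSO or Corin. Over the whole window, the 6 regions gained with Corin had pileups of 30 to 65 reads, with a median of 41.5. For those gained with ATRA the median was 46.0 and the highest 343. Of the DMSO regions, the one at -250.3 kb (fold 3.99, pileup 54) was in no other list.

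**Figure D2:**
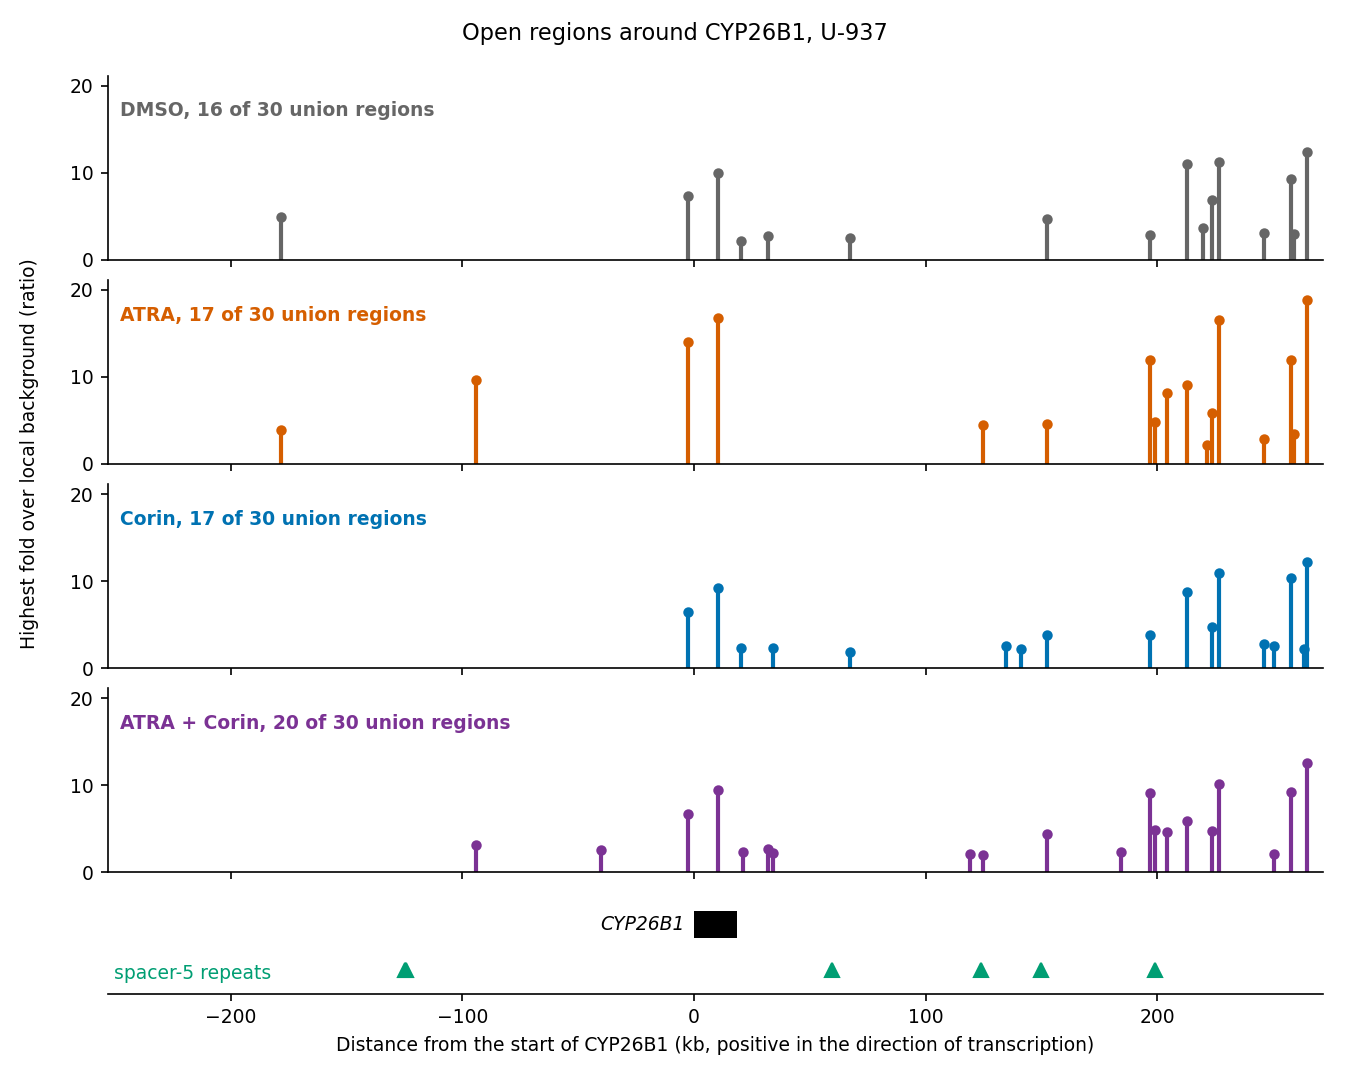
Highest fold over local background (vertical axis, ratio) of each region around CYP26B1 against the distance of its summit from the start of the gene (horizontal axis, kb), with 1 panel per list. The black box is the gene and green triangles are spacer-5 repeats. Regions of 1 list that fall in the same union region are drawn as 1 point. The regions at +199.0 and +204.3 kb appear in the 2 lists with ATRA and in neither other list.

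Around CYP26B1, ATRA gained 5 of 17 regions (29.4%, against 23.1% of all) and lost 5 of 18 (27.8%, against 25.3%), near the background in both directions. Corin gained 5 of 17 (29.4%, against 17.7%) and lost 6 of 18 (33.3%, against 28.5%). The combination gained 10 of 21 (47.6%, against 16.7%) and lost 6 of 18 (33.3%, against 31.5%). Of the 10 gained with the combination, 1 stood above the middle of that list by strength, and their median pileup was 38.0 reads. Around CYP26B1 the DMSO region at +219.9 kb (fold 3.60, pileup 100) was in no other list. With a −log10 q of at least 5 the combination gained 13 regions over both windows instead of 20. The share gained over all regions was then 13.2% instead of 16.7%.

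The -2.7 kb region, upstream of the CYP26B1 start, had folds of 7.29 with DMSO, 14.0 with ATRA, 6.44 with Corin and 6.67 with the combination. Its centred log2 ratio with ATRA was 0.61 by fold, past the limit, and by pileup it was 0.25 (95% counting interval -0.10 to 0.61). The intronic region at +10.2 kb had folds of 9.97, 16.8, 9.16 and 9.50 and a pileup ratio of -0.06 (-0.30 to 0.18) with ATRA. Both looked highest with ATRA by fold, and neither differed between ATRA and DMSO by pileup beyond counting error. By pileup the +10.2 kb region was highest with the combination, at 425 reads against 289 with DMSO. Its combination to DMSO ratio was 0.40 (0.18 to 0.62), beyond counting error. At -2.7 kb the same ratio was 0.32 (-0.03 to 0.67).

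The largest difference of the window among regions of all lists lay at +196.9 kb. Its pileup was 38 reads with DMSO, 382 with ATRA, 52 with Corin and 408 with the combination, and the folds were 2.83, 12.0, 3.75 and 9.16. The centred log2 pileup ratio was 3.23 (95% counting interval 2.74 to 3.75) with ATRA, 0.58 (-0.05 to 1.23) with Corin and 3.27 (2.78 to 3.79) with the combination. By fold the same ratios were 1.75, 0.49 and 1.67.

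Its neighbour at +199.0 kb, which holds a repeat 51 bp from the summit, was called with ATRA (fold 4.86, pileup 165) and the combination (fold 4.90, pileup 240) and in neither other list. The region at +204.3 kb followed the same pattern, with folds of 8.15 and 4.65. So did an intron of EXOC6B at -93.9 kb, with folds of 9.59 and 3.15. That intron was weaker in the combination, with a log2 pileup ratio to ATRA of -1.05 (95% counting interval -1.59 to -0.53).

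**Figure D3:**
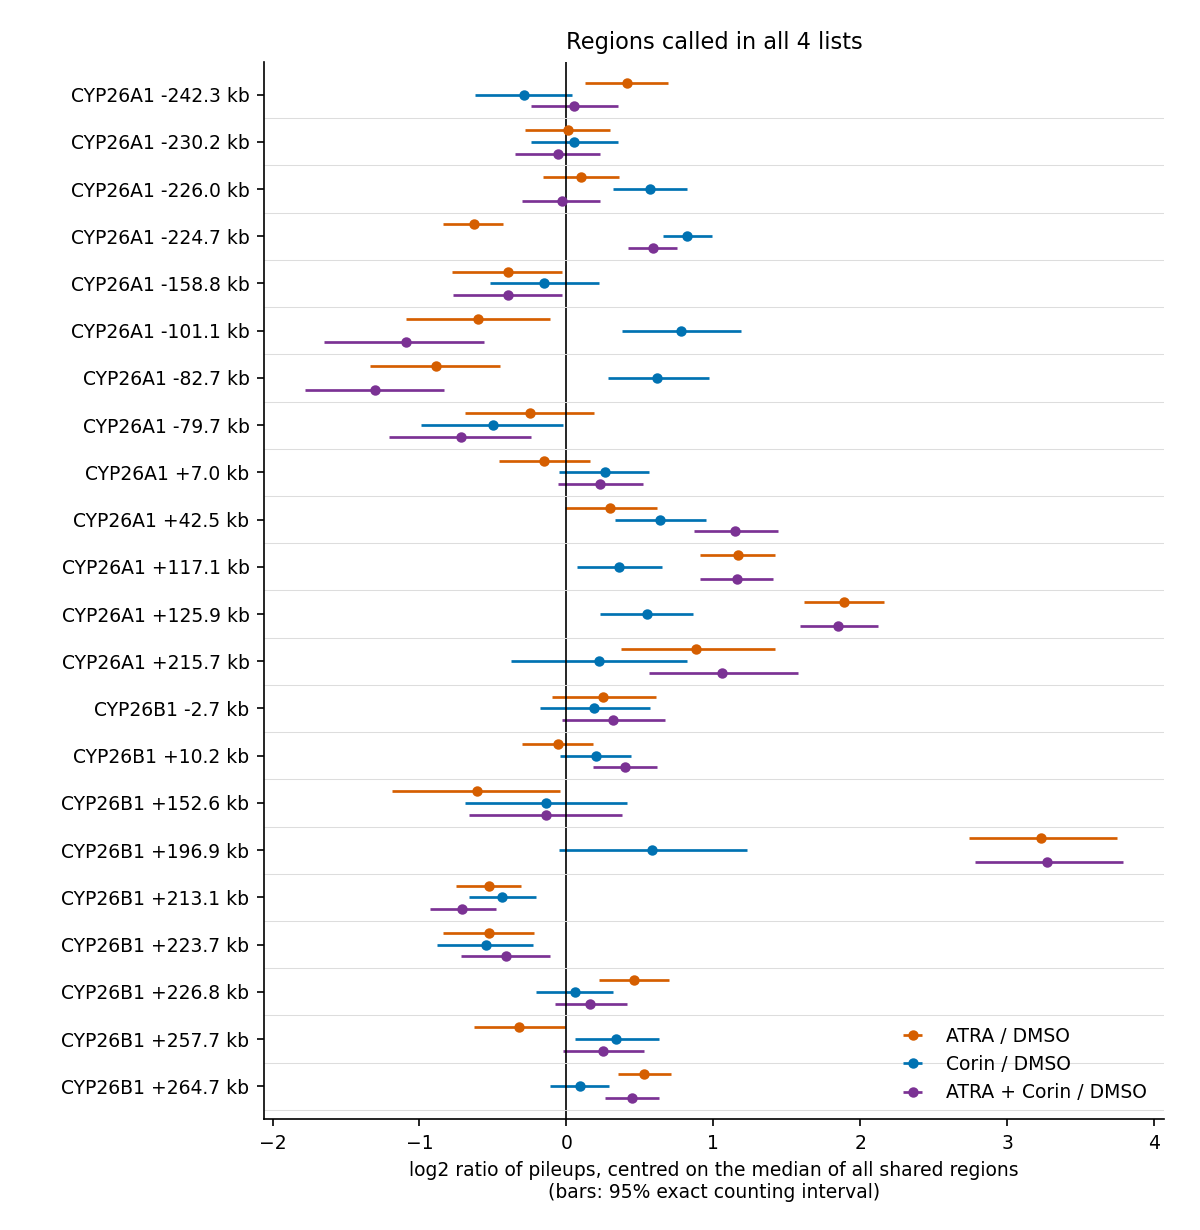
Centred log2 ratio of pileups to DMSO (horizontal axis) for each region called in all 4 lists (vertical axis), with 95% exact counting intervals as bars and 1 colour per treatment. The largest ratios with ATRA and with the combination are those of CYP26B1 +196.9 kb, at 3.23 and 3.27.

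Among the regions found with DMSO and ATRA in both windows, 5 of 29 (17.2%) were higher with ATRA by at least 1.5 times in centred fold, against 16.6% of all shared regions, and 4 (13.8%) were lower, against 8.80%. With Corin 1 of 26 (3.85%) was higher, against 6.34%, and 1 was lower, against 10.8%. With the combination 4 of 24 (16.7%) were higher, against 8.26%, and 5 (20.8%) were lower, against 12.1%. Against ATRA the combination had 2 of 36 (5.56%) higher, where 7.18% of all were, and 7 (19.4%) lower, where 18.1% were. Against Corin it had 3 of 27 (11.1%) higher, where 9.71% were, and 4 (14.8%) lower, where 8.97% were. Without centring, ATRA had 8 higher, where 31.9% of all were, and 0 lower, where 3.07% were.

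Regions called with ATRA and with the combination and in neither other list made up 7 of 39 (17.9%) around CYP26A1 and CYP26C1 and 4 of 30 (13.3%) around CYP26B1, where 3.20% of all union regions had this pattern. The opposite pattern, DMSO and Corin and neither list with ATRA, was found in 0 of 39 and 2 of 30 (6.67%), against 4.24%. Regions of all 4 lists made up 13 of 39 (33.3%) and 9 of 30 (30%), against 41.1%. Counted in the same way for each of 20007 coding genes, the median gene had 1.0 region of the ATRA and combination pattern and the highest had 14. CYP26A1 had 7, more than 98.7% of genes, and 259 genes had as many or more. The neighbouring gene MYOF had 12, and its window shares 271.5 kb with that of CYP26A1. CYP26B1 had 4, more than 88.4% of genes. Windows of neighbouring genes overlap, so these genes are not independent.

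**Figure D4:**
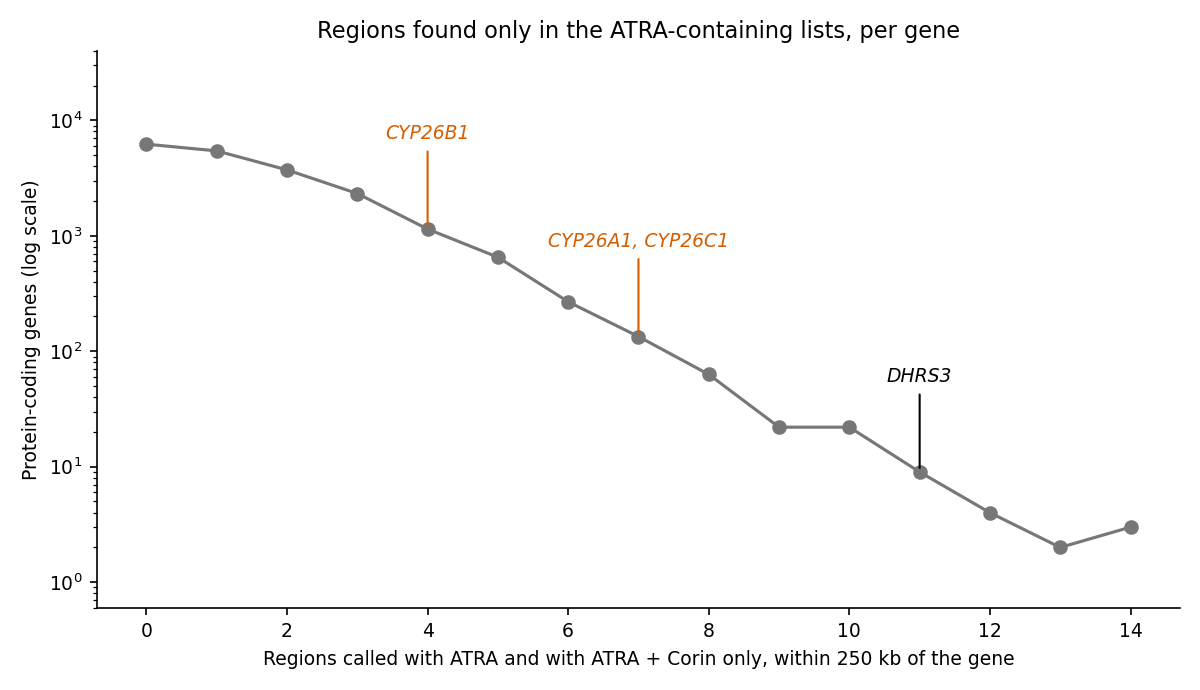
Number of protein-coding genes (vertical axis, log scale) by the number of regions within 250 kb called with ATRA and the combination and in neither other list (horizontal axis). CYP26A1 and CYP26C1 share a count of 7, CYP26B1 has 4 and DHRS3 has 11.

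The combination and ATRA differed less clearly. Against ATRA the combination lost 11 of 34 regions (32.4%) around CYP26A1 and CYP26C1, where 28.4% of all ATRA regions were lost, and gained 1 of 24 (4.17%), against 15.5%. Around CYP26B1 it lost 4 of 17 (23.5%, against 28.4%) and gained 7 of 21 (33.3%, against 15.5%). Those 7 were weak, with pileups of 33 to 42 reads, between percentiles 3.9 and 12.9 of the combination list by strength. Over both windows the loss of 15 became 6 of 40 with lists of equal length, where 19.0% of all were lost. Against Corin, where 20.6% of all were gained, the combination gained 8 of 24 regions (33.3%) around CYP26A1 and CYP26C1. Around CYP26B1 it gained 10 of 21 (47.6%). It lost 4 of 20 (20%) and 6 of 17 (35.3%) Corin regions in the same order, against 25.0%.

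An exact spacer-5 repeat was found in 3 of 69 regions (4.35%), against 0.0905% of all union regions. Of all regions with the ATRA and combination pattern 0.484% held one. That is not a like set, since the 69 regions have all call patterns and the +172.4 kb region was called with ATRA alone. The windows held 13 such repeats in all, 7 around CYP26A1 and CYP26C1 and 6 around CYP26B1, and 10 of them lay outside every region. With 1 mismatch allowed, 6 regions (8.7%) had a repeat, against 1.36% of all, and these added +117.1 kb, +125.9 kb and CYP26B1 -2.7 kb. AP-1 sites (TGACTCA or TGAGTCA) were in 13 of 69 (18.8%, against 9.58%) and PU.1 sites (GAGGAAGT) in 3 of 69 (4.35%, against 6.73%). A match of letters does not show that a factor was bound.

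Of the rest of the pathway, 20 genes of retinoid receptors, binding proteins, and uptake, storage and synthesis were counted within the same 250 kb. ATRA gained 201 of 901 regions (22.3%), near the 23.1% of all, so a surplus of gained regions was not a feature of the list. Corin gained 116 of 799 (14.5%, against 17.7%) and the combination 152 of 782 (19.4%, against 16.7%). The highest counts were at DHRS3, which reduces retinaldehyde to retinol, with 20 gained with ATRA, 23 with the combination and 11 of the ATRA and combination pattern.

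The promoter region of a gene was taken as the strongest region within 1 kb of an annotated start. RARB and DHRS3 had 3 regions there, RXRG and STRA6 had 2 and DHRS9 had 4, and only the strongest was compared. Among the receptors, the promoter of RARB had folds of 6.23 with DMSO, 12.3 with ATRA, 3.54 with Corin and 11.8 with the combination. Its centred log2 fold ratios were 0.65, -0.73 and 0.89. The promoter of RXRG had folds of 6.23, 20.6, 6.56 and 12.8, and ratios of 1.39 with ATRA and 1.01 with the combination. By fold those 2 were the promoters of the list past 1.5 times upward with ATRA, of 13 shared, where 7.38% of all shared promoter regions were. By pileup 3 were, against 8.90%: RARB at 2.78 (95% counting interval 2.45 to 3.13), RXRG at 1.94 (1.67 to 2.21) and DHRS3 at 1.94 (1.76 to 2.13). The fold ratio of DHRS3 was -0.13, so the call at its promoter turned on the measure.

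By fold 1 promoter of 13 was lower than DMSO with ATRA, against 5.26% of all, that of DHRS9, a retinol dehydrogenase, with a ratio of -1.24. By pileup DHRS9 was at -0.50 (95% counting interval -0.67 to -0.33), under the limit. The 2 promoters lower by pileup, against 9.04%, were those of CRABP2, at -0.79 (-1.14 to -0.45), and FABP5, at -0.76 (-0.87 to -0.64), 2 intracellular binding proteins of retinoic acid, whose fold ratios were 0.09 and -0.42.

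With Corin, by fold, the promoters of RARB and of CRABP2, which carries retinoic acid to the nucleus, were lower, 2 of 12, against 4.17%, and 0 were higher, against 2.91%. By pileup the same 2 were lower, at -0.66 and -0.85, against 5.94%, and DHRS3 (0.66, 95% counting interval 0.45 to 0.88) and DHRS9 (0.77, 0.62 to 0.91) were higher, against 5.62%. With the combination 2 of 12 were higher by fold, against 4.40%, and 0 lower, against 4.40%. By pileup 3 were higher, against 8.48%, RARB at 2.81, RXRG at 1.22 and DHRS3 at 2.27 (2.09 to 2.45; 0.27 by fold), and 0 were lower, against 8.53%. ALDH1A1, which makes retinoic acid, had a promoter region with ATRA alone, at a fold of 7.12, while those of CRABP1 and ALDH1A3 were called with DMSO alone, at 2.08 and 2.41. The stronger of the 2 promoter regions of STRA6, a retinol transporter, was missing with Corin. The only promoter region of CRABP2 was missing with the combination.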

How the data were processed

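ATAC-seq of U-937 cells was used in 8 samples, 2 in each of 4 groups, which the authors deposited as 1 pooled peak list per group, so that no value per replicate entered. The submitters' processing notes name cutadapt, Bowtie2, SAMtools, Picard and MACS2 and the build hg38. Their versions and settings are not given in the sources used here. The files have no header, and units were read from the narrowPeak layout. The authors deposited, for each peak, its enrichment as a ratio (fold) over local background, a p as −log10, a q on that same scale, and the summit as an offset in bp. The score column the authors deposited was not used.

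Within a list, peaks that overlapped were joined into 1 region, over 24 chromosomes, and an overlap of at least 1 bp made a counterpart. A region was called gained when it had no counterpart in the reference list and lost in the opposite case. Union regions were formed over the 4 lists. For regions in both lists the highest fold was compared as a log2 ratio, centred on its median over all shared regions, with a limit of 1.5 times. The median before centring against DMSO was 0.335 (ATRA), -0.085 (Corin) and 0.028 (combination). Pileups were solved from fold and p, assuming Poisson tails and 1 added to pileup and background, and came out whole within 0.05 for 99.97%, 99.98%, 99.98% and 99.96% of peaks in the DMSO, ATRA, Corin and combination lists. Their ratios carry exact 95% intervals. Whether reads or unique molecules were piled up was not checked, and the intervals cover counting error only. The depth of the samples is unknown.

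Genes came from GENCODE release 44. Motifs were searched on both strands in 200 bp at the strongest summit. Regions were named by a rule: those within 10 kb of a member, the 3 strongest per window, the 3 strongest gained and lost and the 3 highest and 3 lowest shared ratios per treatment, and those with a spacer-5 repeat. Other named regions were chosen after their values were seen. Members, gene lists and the rule were chosen with earlier results of these data known. Alternatives were a −log10 q limit of 5, merging within 150 bp, 50% overlap, a 500 bp distance, lists of equal length, windows of 50 and 100 kb, a limit of 2 times, other centring and pileups. The method was tested on simulated data, and overlap counts equalled those of bedtools 2.31.1 in 10 of 10 comparisons. Python 3.11.15 with pandas 2.3.3, numpy 2.4.6 and scipy 1.17.1 was used.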

Additional observations from a re-analysis of the deposited data

How the results depend on the processing

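No paired analysis was possible because each group's samples, which share replicate numbers in the labels, were deposited as 1 pooled list. No replicate was left out, as the pooled lists carry none. Of 155 recomputed counts over both windows, 100 stayed within 1.5 times of the reported count and 55 moved. Of 195 recomputed region ratios 30 moved and 25 changed sign, 15 with pileups in place of fold, 6 without centring and 4 centred on the strongest 20%. The reported ratios of those 25 were at most 0.47 in size, and 0 of them had passed 1.5 times. With pileups, CYP26A1 +7.0 kb with ATRA went from 0.17 to -0.15, and CYP26B1 +10.2 kb from 0.42 to -0.06. The cause was not tested, except that smaller windows hold fewer regions.

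With a −log10 q of at least 5, ATRA against DMSO lost 3 regions (reported 6), where 17.5% of all were lost. Corin gained 6 (reported 11), where 11.2% were gained, and the combination 13 (reported 20), where 13.2% were. Against ATRA the combination gained 2 (reported 8), where 9.06% were. Against Corin it lost 6 (reported 10), where 17.2% were lost. The 22 regions gained with ATRA stayed at 22, where 23.2% of all were gained. With lists of equal length they became 16 of 40 ATRA regions, where 18.0% of all were gained. With lists of equal length, Corin against DMSO lost 6 (reported 10), where 19.7% of all were lost. The combination against ATRA lost 6 (reported 15), where 19.0% were. The number called with ATRA and the combination and in neither other list was 11, where 3.20% of all had this pattern. It became 10 with the stricter q (3.8% of all), 11 with merging within 150 bp (3.16%) and 9 with lists of equal length (3.58%). The alternatives for this pattern count were chosen after seeing the data.

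In windows of 50 kb the lists of DMSO, ATRA, Corin and the combination held 9, 7, 10 and 9 regions. ATRA gained 2 and lost 4, Corin gained 3 and lost 2, and the combination gained 4 and lost 3 against DMSO, gained 4 and lost 2 against ATRA, and gained 3 and lost 4 against Corin. Of all regions 23.1%, 17.7% and 16.7% were gained and 25.3%, 28.5% and 31.5% lost in those treatments against DMSO. The combination gained 15.5% of all and lost 28.4% against ATRA, and gained 20.6% and lost 25.0% against Corin. These shares stand beside the counts of both window sizes. In windows of 100 kb the lists held 13, 17, 13 and 16. ATRA gained 8 and lost 4, Corin gained 3 and lost 3, and the combination gained 8 and lost 4 against DMSO, gained 4 and lost 5 against ATRA, and gained 7 and lost 4 against Corin.

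At a limit of 2 times, ATRA had 2 shared regions higher and 0 lower (reported 5 and 4), against 7.02% and 2.37% of all. Corin had 0 and 0 (reported 1 and 1), against 1.78% and 2.84%. The combination had 2 and 2 against DMSO (reported 4 and 5), where 2.23% and 4.36% of all were past the limit. It had 1 lower than ATRA (reported 7), where 7.81% were. Against Corin it had 1 higher and 2 lower (reported 3 and 4), where 3.06% and 3.16% were. Without centring, ATRA had 8 higher (31.9% of all) and 0 lower (3.07%), and Corin 2 lower (13.8%). The combination then had 15 lower against ATRA (33.1% of all) and 2 lower against Corin (6.84%). Centred on the strongest 20%, ATRA had 1 lower (5.45% of all), Corin 2 lower (13.2%) and the combination 13 lower against ATRA (28.0%). With pileups in place of fold, Corin had 4 higher (10.2% of all). The combination had 5 higher (12.9%) and 4 lower (19.8%) against ATRA and 5 higher against Corin (12.4%). With 1 mismatch allowed in a core, 6 regions held a spacer-5 repeat (reported 3), where 1.36% of all did.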
